A study of Capra hircus with 2 samples.

Results

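The myogenic regulatory factors MYF5, MYOD1, MYOG and MYF6 and the MEF2 factors MEF2A and MEF2C were followed in goat back muscle at 2 ages. They were found by their transcript accessions, NM_174116 (MYF5), NM_001040478 (MYOD1), NM_001111325 (MYOG), NM_181811 (MYF6), NM_001083638 (MEF2A) and NM_001046113 (MEF2C), which were taken as the cattle RefSeq transcripts of these genes. The symbols do not come from the deposited files, and neither does the species of the transcripts. All 6 were present among the 11663 accessions listed in either library. RNA sequencing had been carried out on longissimus thoracis of Chinese Xuhuai goats, with 1 library from embryos at day 90 of a 150-day gestation and 1 library from goats aged 6 months. No treatment or genotype is given for either group. How many animals each library came from is not stated in the sample labels, and the sampling text of the 6-month library repeats that of the fetal one. How the older muscle was sampled is therefore not known. Neither library has a replicate, so the spread between animals is unknown and no test across animals was made.

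The fetal library held 12811117 unique reads over 11393 accessions and the 6-month library held 9144138 over 10850. Levels are the authors' RPKM, the reads of a transcript scaled to its length and to the library's total reads. The intervals given are exact 95% intervals for counting error alone. They compare these 2 libraries and not the ages, and they are too narrow wherever PCR copies of a molecule were counted as separate reads. The files do not pair accessions with symbols, and 0 of the 11663 accessions were found in the goat RefSeq gene table used here. Markers of muscle fibres and of other cell types, and other genes of the myogenic pathway, were therefore not analysed here.

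The myogenic regulatory factors are basic helix-loop-helix transcription factors that pair with E proteins and bind E-box motifs in the control regions of muscle genes. MYF5 and MYOD1 act early, committing progenitors to the muscle lineage, and mark proliferating myoblasts and activated satellite cells. MYOG drives the later step in which myoblasts leave the cell cycle, differentiate and fuse, and MYF6, also called MRF4, is the member most associated with mature fibres. The MEF2 factors are MADS-box proteins that cannot start the muscle programme alone but act together with the helix-loop-helix factors on many of the same genes. MEF2 factors are also made in other cell types, among them endothelial cells. In RNA from whole muscle, fewer cells of a type and less RNA per cell cannot be told apart.

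In the fetal library the leading factors were MEF2C, at an RPKM of 313 (307 to 319), and MYOG, at 309 (301 to 317). The ratio of MEF2C to MYOG was 1.01 (0.982 to 1.05), so their order was within counting error. MYOD1 followed at 68.0 (64.7 to 71.3), then MYF6 at 38.2 (34.9 to 41.7), MYF5 at 32.4 (30.2 to 34.7) and MEF2A at 9.76 (9.05 to 10.5). Which of MYF6 and MYF5 was the higher in this library depended on the transcript length used, as given below. At 6 months the order of the 6 genes was different. MYF6 led at 197 (188 to 206), ahead of MEF2C at 92.8 (89.1 to 96.6) and MYOG at 68.2 (63.9 to 72.8). Below these came MEF2A at 24.9 (23.6 to 26.3), MYOD1 at 16.7 (14.8 to 18.8) and MYF5 at 1.10 (0.675 to 1.71), and no neighbours in this order had overlapping intervals. For scale, the median RPKM of all listed accessions was 8.23 in the fetal library and 5.28 at 6 months.

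**Figure D1:**
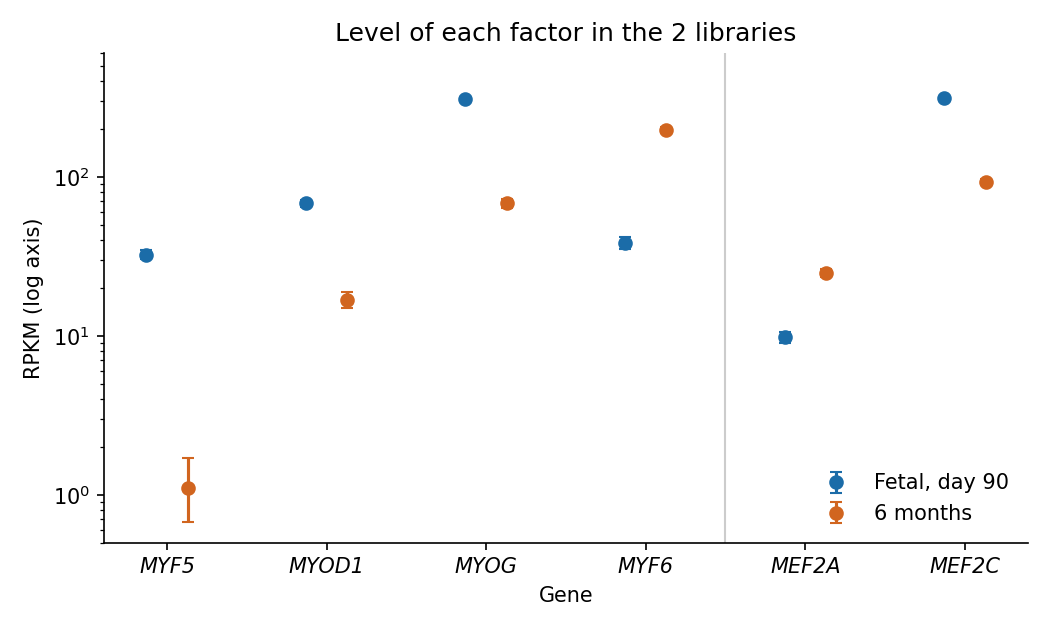
RPKM of each gene on a log axis in the fetal library (blue) and the 6-month library (orange), with 1 point per library and bars for the exact 95% counting interval. The fetal point is the higher for MYF5, MYOD1, MYOG and MEF2C, and the 6-month point is the higher for MYF6 (197 against 38.2) and MEF2A (24.9 against 9.76).

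MYF5 had 822 fetal reads and 20 reads at 6 months on a transcript of 1980 bases. Its share of the reads was 29.3-fold that at 6 months (18.9 to 48.3), the largest ratio among the 6 genes, and its wide interval comes from the 20 reads of the older muscle. On the log2(RPKM + 1) scale, which lessens the change of a transcript this low, the difference was 3.99. The fetal level was above that of 80.6% of the accessions listed in that library. At 6 months the level was above that of only 23.4% of those listed there, so among the 6 genes MYF5 alone lay in the lower part of a library's range.

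MYOD1, the other early factor, had 1652 fetal reads and 290 reads at 6 months (1897 bases). The fetal share was 4.07-fold the other (3.59 to 4.62), a log2(RPKM + 1) difference of 1.96. Unlike MYF5, it was still well above the median transcript at 6 months, with 73.6% of listed accessions below it, against 90.6% in the fetal library. The ratio of MYOD1 to MYF5 was 2.10 (1.93 to 2.28) in the fetal library and 15.1 (9.62 to 25.1) at 6 months, so the 2 early factors did not differ between libraries to the same extent. This ratio was 7.21-fold larger at 6 months (4.54 to 12.1).

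MYOG, the differentiation factor, had 5850 fetal reads and 923 reads at 6 months (1479 bases). The fetal share was 4.52-fold the 6-month one (4.22 to 4.85), a log2(RPKM + 1) difference of 2.16. At both ages it stood high in the list, above 97.7% of fetal and 91.4% of 6-month accessions. MYOG and MYOD1 differed between libraries by a like factor. The ratio of MYOG to MYOD1 was 4.54 (4.30 to 4.80) in the fetal library and 4.08 (3.57 to 4.67) at 6 months, and the second ratio was 0.899 of the first with an interval of 0.778 to 1.04. Counting error alone thus does not separate the 2 ratios, and a difference between them of up to the size of that interval remains possible.

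MYF6 went the other way from the remaining myogenic regulatory factors. It had 494 fetal reads and 1819 reads at 6 months (1010 bases), although the 6-month library was the shallower one. Its share was 5.16-fold higher at 6 months (4.67 to 5.71), a log2(RPKM + 1) difference of -2.34. It was above 83.7% of the accessions listed in the fetal library and above 96.5% of those listed at 6 months. MYF6 and MYF5 are next to each other on the same chromosome in the goat assembly ARS1.2, with no other gene of that table between them, while MYOD1, MYOG, MEF2A and MEF2C lie on chromosomes that hold no other gene of the 6. The adjacent pair showed the widest separation of any pair among the 6. The ratio of MYF6 to MYF5 was 1.18 (1.05 to 1.32) in the fetal library and 178 (115 to 293) at 6 months, which is 151-fold larger (95.9 to 251). Per covered length, described below, these ratios were 0.770 and 116, so the fetal order of MYF6 and MYF5 depended on the length used.

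The 2 MEF2 genes followed here also differed in opposite directions. The other MEF2 genes, MEF2B and MEF2D, were not analysed here, so these 2 do not stand for the whole MEF2 family. MEF2C, whose product acts early among MEF2 factors in muscle development, had 11105 fetal reads and 2351 reads at 6 months (2770 bases). The fetal share was 3.37-fold that of the older muscle (3.22 to 3.53), a log2(RPKM + 1) difference of 1.74. MEF2A, a broadly expressed relative, had 696 fetal reads and 1268 reads at 6 months (5568 bases). Its share was 2.55-fold higher at 6 months (2.33 to 2.80), a log2(RPKM + 1) difference of -1.27, the smallest in size of the 6. MEF2A was near the middle of the fetal list, above 54.3% of accessions, and above 79.9% at 6 months. MEF2C exceeded MEF2A 32.1-fold per length in the fetal library (29.7 to 34.7) and 3.73-fold at 6 months (3.48 to 3.99). The MEF2C transcript thus remained the more abundant of the pair at both ages. Each gene was represented by 1 accession, so splice forms were not distinguished.

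A transcript was called higher in a library when log2(RPKM + 1) differed by at least 1, about 2-fold, provided that at least 1 of the libraries reached an RPKM of 1. By that rule 4 of the 6 genes (MYF5, MYOD1, MYOG and MEF2C) were higher in the fetal library, where 35.1% of all 9705 accessions compared were called in that direction. The other 2 (MYF6 and MEF2A) were higher at 6 months, a call made for 9.46% of accessions. All 6 were called, against 44.6% of accessions in either direction, and the counting interval of each read ratio lay wholly beyond 2-fold. Among the 5586 accessions that reached an RPKM of 10 at either age, the shares were 36.1% toward the fetal side and 13.4% toward 6 months. Since most of the 6 genes are abundant and deeply read, these shares are the nearer background. With a difference of at least 2 asked for, MYF5 and MYOG were called on the fetal side (10.8% of all 9705 accessions) and MYF6 at 6 months (3.49%). MYOD1 (1.96) fell just short, with a plain read ratio of 4.07-fold against 4.52-fold for MYOG. Centred on the median ratio, MYOG (1.59) fell short as well. The median difference was 1.85 over the 6 genes, 2 of which differed in the other direction, and 0.61 over all accessions compared. With 6 genes chosen for their roles, these counts describe the genes and say nothing of how often other transcription factors differed.

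The genes also lay at different places in the distribution of differences. Only 84 of the 9705 accessions had a difference further toward the fetal library than MYF5, and 17 others were within 0.1 log2 units of it. MYOG was exceeded by 835 accessions, MYOD1 by 1102 and MEF2C by 1455. Each of these 3 had between 216 and 317 other accessions within 0.1 log2 units. Differences at least as large were seen in 8.61% of accessions for MYOG, 11.4% for MYOD1 and 15.0% for MEF2C. On the other side, 238 accessions lay further toward the 6-month library than MYF6 and 691 lay further than MEF2A, with 57 and 149 accessions within 0.1 log2 units. With 2 libraries the pattern of a gene is this single difference, so no transcript was named as most like any of them.

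**Figure D2:**
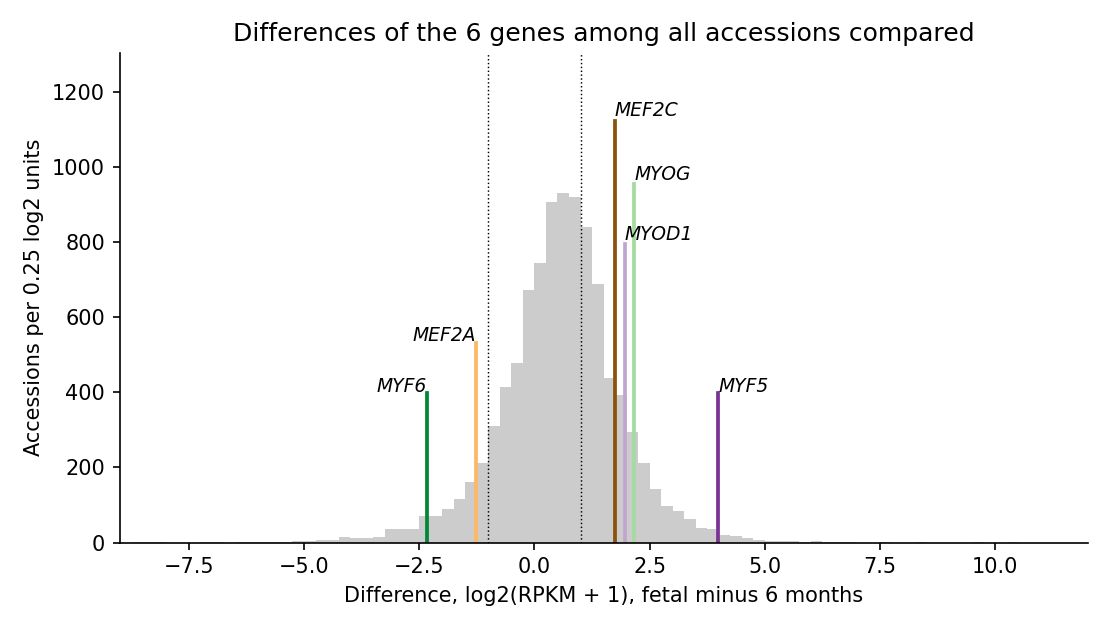
Histogram of the log2(RPKM + 1) difference, fetal minus 6 months, for the 9705 accessions compared (grey, per 0.25 log2 units), with a coloured line at each gene, whose height has no meaning, and dotted lines at the call threshold of 1 in either direction. MYF5 at 3.99 lies in the thin right tail, MEF2C, MYOD1 and MYOG lie on the right shoulder between 1.74 and 2.16, and MEF2A (-1.27) and MYF6 (-2.34) lie on the left.

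The summed RPKM of the 4 myogenic regulatory factors was 447 (fetal) and 283 (6 months), a ratio of 1.58, below the ratio of each of MYF5, MYOD1 and MYOG. This ratio depends on the scaling and on length. It was 1.06 after centring on the median ratio of all transcripts, and 2.06 (1.98 to 2.15) for the summed reads without length correction. Shares within a family do not depend on how the libraries are scaled to each other. MYOG made up 69.0% of it in the fetal library and 24.1% at 6 months. MYF6 made up 8.54% in the fetal library and 69.6% at 6 months. The early factors MYF5 and MYOD1 together made up 22.4% in the fetal library, of which MYOD1 gave 15.2 percentage points and MYF5 gave 7.24. At 6 months they made up 6.30%, of which MYOD1 gave 5.91 and MYF5 gave 0.39. The later factors MYOG and MYF6 together made up 77.6% and 93.7%. The early-to-late balance thus differed less than the balance between the 2 later factors, where the leading gene was MYOG in the fetal library and MYF6 at 6 months. The ratio of MYF6 to MYOG was 0.124 (0.113 to 0.136) in the fetal library and 2.89 (2.66 to 3.13) at 6 months, 23.3-fold larger (20.6 to 26.4).

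Of the summed RPKM of MEF2A and MEF2C, 323 in the fetal library and 118 at 6 months, MEF2A made up 3.02% and 21.2%. In reads without length correction, which favour its long transcript, MEF2A made up 5.90% and 35.0% of the pair. The 4 myogenic regulatory factors together exceeded the sum of MEF2A and MEF2C 1.39-fold in the fetal library and 2.40-fold at 6 months per length. That sum leaves out MEF2B and MEF2D. In reads the order was the opposite. The myogenic regulatory factors had 8818 reads against 11801 for MEF2A and MEF2C in the fetal library, and 3052 against 3619 at 6 months. MYF6 and MEF2A, the pair higher at 6 months, did not keep pace with each other. Their ratio was 3.91 (3.48 to 4.40) in the fetal library and 7.91 (7.36 to 8.50) at 6 months, 2.02-fold larger (1.76 to 2.32). MEF2C and MYOG, nearly level in the fetal library, were apart at 6 months, where MEF2C was 1.36-fold the higher (1.26 to 1.47).

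**Figure D3:**
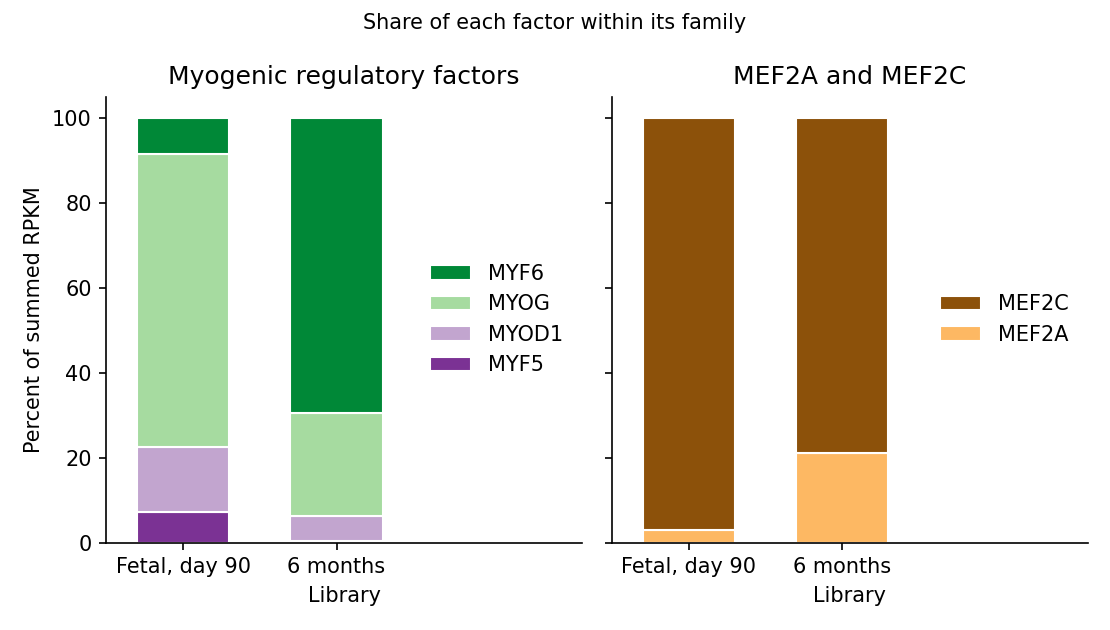
Share of the summed RPKM taken by each myogenic regulatory factor (left) and by MEF2A and MEF2C (right), in percent, with 1 stacked bar per library and no error bars. MYOG fills 69.0% of the fetal bar and MYF6 fills 69.6% of the 6-month bar, and the MEF2A part is 3.02% of the fetal bar against 21.2% of the 6-month bar.

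A gene's RPKM depends on what else its library holds. Over the 8201 accessions that reached an RPKM of 1 at both ages, fetal values exceeded 6-month values by a median of 0.58 log2 units. Relative to that shift, with 6-month values raised by it, the difference was 3.66 for MYF5, 1.41 for MYOD1, 1.59 for MYOG and 1.17 for MEF2C, and it was -2.91 for MYF6 and -1.83 for MEF2A. All 6 calls held, against a background of 22.3% called on the fetal side and 17.2% on the other after this centring. The general shift was not the same at every level. It was 0.58 for accessions with a mean RPKM within 2-fold of that of MYF5 and 0.57 around MEF2A, 0.38 around MYOD1 and 0.16 around MYF6. Around the abundant MYOG and MEF2C it was 0.06 and 0.07. Less the shift at its own level, the difference was 2.10 for MYOG, 1.60 for MYOD1 and 1.67 for MEF2C. A different shift was taken from each gene here, 0.06 for MYOG and 0.38 for MYOD1, which widens the gap between these 2. Their ratio to each other, which no scaling of the libraries changes, was not separated between libraries by counting error (0.899, 0.778 to 1.04). The 6 genes kept their direction and their call under each of the 6 scalings plotted.

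**Figure D4:**
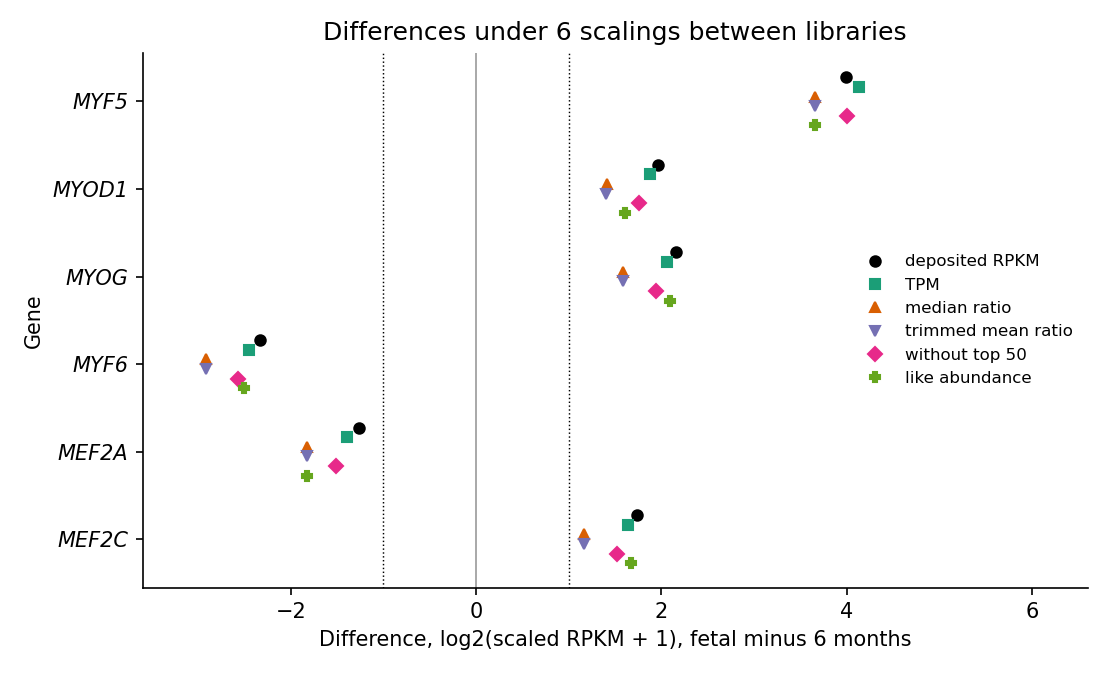
Difference between libraries, log2(scaled RPKM + 1), fetal minus 6 months, for each gene under the deposited RPKM and 5 other scalings, with 1 mark per scaling and dotted lines at the call threshold of 1. No mark lies between the dotted lines, and the mark nearest to a threshold is that of MEF2C at 1.17.

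The percentage of each transcript covered by reads was high for most of the genes. MYOD1 was covered to 96.5% in the fetal library and 92.4% at 6 months, MYOG to 93.0% and 92.7%, MYF6 to 94.5% and 94.9%, and MEF2C to 91.8% and 91.2%. MEF2A, the longest transcript, was covered to 80.3% in the fetal library, where each base was read 11.2 times on average, and to 93.1% at 6 months, where it was read 20.5 times. MYF5 stood apart. Its fetal reads would cover each base 37.4 times on average, yet they lay on 62.0% of the transcript, whereas 366 other accessions read to within 10% of that depth had a median coverage of 87.7% (quartiles 80.4% and 94.0%). Of those 366, 11 had a lower coverage. At 6 months the 20 reads of MYF5 lay on 41.4%, against a median of 43.9% for 274 accessions of like depth.

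The covered length, taken for each gene from the library with the higher coverage and used for both, was also tried in place of the listed length. With it, the level of MYF5 relative to the other genes is higher. The fetal ratio of MYF6 to MYF5 then becomes 0.770 in place of 1.18, so which of the 2 was the more abundant in fetal muscle depended on the length used. That of MYOD1 to MYF5 becomes 1.35 in place of 2.10. As 1 length per gene was used for both libraries, this leaves each gene's ratio between libraries as it was. Why part of the listed MYF5 transcript had no reads was not tested.

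**Figure D5:**
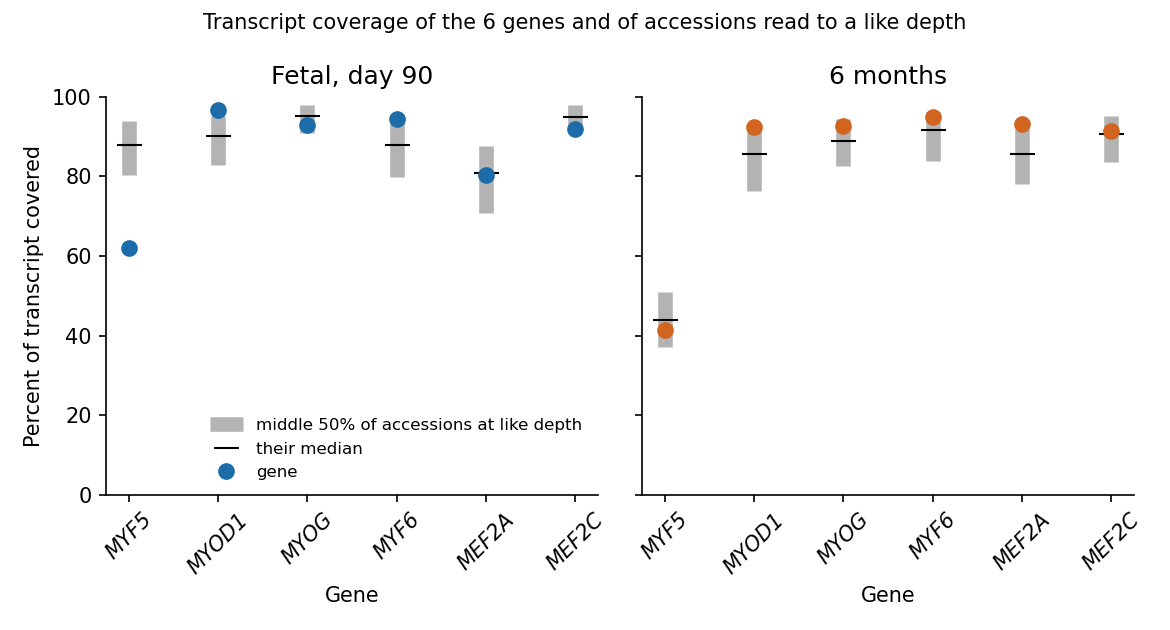
Percent of each transcript covered by reads in the fetal library (left) and the 6-month library (right), as 1 point per gene, over the median (black dash) and the middle 50% (grey bar) of accessions whose depth was within 10% of the gene's. The fetal MYF5 point at 62.0% lies below its grey bar, which runs from 80.4% to 94.0%.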

How the data were processed

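The authors deposited, per the file headers, the count of unique reads per RefSeq transcript accession, the transcript length in bases, the percent of the transcript covered, and the RPKM. The aligner, the treatment of reads that match several transcripts, the genome build, strandedness and how the transcript list was put together are not stated in any source used here. Deposited counts summed to the header totals, and the deposited RPKM was recovered from counts and lengths for all accessions. Single reads covered 90 bases, used here as the read span. The 6 genes and their symbols, which were assigned by accession and not by the files, the lists and the rules were chosen with earlier results of these data known.

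Every member was to be named with all its values, and other genes only where a table paired accessions with symbols, which none did. That rule therefore left the planned pathway and marker lists without values. Differences were log2(RPKM + 1) of the fetal library minus the 6-month library, computed over the whole table, with a minimum RPKM of 1 at either age and a call at 1 log2 unit. Intervals were exact: Poisson for levels, and Clopper-Pearson for a gene's or family's ratio between libraries and for ratios between genes within a library. Where a ratio between genes was compared between libraries, the interval was that of the conditional odds ratio. The value given there was the plain quotient of the ratios. No p-value was computed, since each age has 1 library. The calculation was tested on simulated data. Alternatives were the pseudocount, the minimum RPKM or reads, the threshold, the scaling, and length. Python 3.11.15, NumPy 2.4.6, pandas 2.3.3, SciPy 1.17.1 and matplotlib 3.10.9 were used.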

Additional observations from a re-analysis of the deposited data

How the results depend on the processing

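No paired analysis was possible because each age has 1 library, and for the same reason no library could be left out. Under 10 of the 11 alternatives tried, 4 genes were called on the fetal side and 2 on the 6-month side. With a threshold of 2 log2 units the counts were 2 (MYF5 and MYOG) and 1 (MYF6). No gene's direction between libraries reversed. The alternatives that changed only the minimum RPKM or reads could not alter a call. Every gene reached an RPKM of at least 24.9 in 1 library and held far more than 20 reads over both. The median and trimmed mean scalings were nearly the same, with shifts of 0.578 and 0.581 log2 units. Sizes moved from the main value by more than the reach of the counting interval on that side as follows, in log2 units. With a pseudocount of 0.1, MYF5 differed by 4.75, which is nearer than the main 3.99 to the log2 of its plain read ratio, 4.87. With a pseudocount of 5, MYF5 differed by 2.62, MYOD1 by 1.75 and MEF2A by -1.02. By TPM, MYOG differed by 2.06 and MEF2C by 1.64. Centred on the median ratio, MYOD1, MYOG, MYF6, MEF2A and MEF2C differed by 1.41, 1.59, -2.91, -1.83 and 1.17, and on the trimmed mean ratio by 1.41, 1.59, -2.92, -1.83 and 1.17. With the 50 most abundant accessions left out of the totals they differed by 1.75, 1.94, -2.57, -1.51 and 1.52. Centred on accessions of like abundance, a scaling chosen after the data were seen, MYOD1, MYF6, MEF2A and MEF2C differed by 1.60, -2.50, -1.82 and 1.67. These shifts follow from applying each scaling or pseudocount to the values of these 2 libraries. Why fetal values were generally the higher was not tested.

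As shares of reads without length correction, MYF5, MYOD1, MYOG and MYF6 made up 9.32%, 18.7%, 66.3% and 5.60% of the family in the fetal library, and MYOD1, MYOG and MYF6 made up 9.50%, 30.2% and 59.6% at 6 months. In alternatives added after the data were seen, MEF2A and MEF2C made up 5.90% and 94.1% of the reads of their pair in the fetal library and 35.0% and 65.0% at 6 months. The fetal to 6-month ratio of the summed RPKM was 1.58 for the myogenic regulatory factors and 2.74 for the MEF2 pair. Centred on the median ratio it was 1.06 and 1.84, and for reads without length correction 2.06 and 2.33. Per covered length, also chosen after the data were seen, MYF5, MYOD1 and MYOG made up 10.6%, 14.2% and 67.1% in the fetal library, the fetal ratio of MYF6 to MYF5 was 0.770 and that of MYOD1 to MYF5 was 1.35. Depth limits the 6-month value of MYF5 most, which rests on 20 reads.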
